A study of Oryza sativa with 17 samples.

Results

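The 100 most abundant transcripts of filling black rice grain were taken from a table of 32657 genes. All genes were ranked by their mean FPKM (mapped fragments scaled by transcript length and library total) in 3 water-sprayed black rice libraries, and the 100 highest became the members. The members were thus chosen by FPKM in the black rice (BR) controls, and the high values in those libraries are a description of the choice. FPKM of LOC4340077, LOC4348524 and LOC4324532, the last members inside the limit, averaged 294, 289 and 288, and LOC4339480 (LEA19, a late embryogenesis abundant protein), LOC4325621 and LOC4327535 (OC-I, a cystatin) just outside it averaged 280, 279 and 275. RefSeq gave a short name to 35 members and an entry without a name to most others. The 65 members without a name include 6 new genes of the authors' assembly and are given by their IDs.

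RNA came from grains of the black rice Nanheinuo at 10 days after flowering (DAF) and of the red rice (RR) Yuhongdao 5815 at 15 and 20 DAF. Control plants received deionized water and Fe plants received ferrous sulfate on their leaves at the end of booting and again a week later, and every solution also held nicotinamide and Tween 80. Each group had 3 libraries, except the RR control at 15 DAF with replicates 2 and 3 only. The Fe dose of each library is not given in its label. The paper sprayed a lower and a higher dose, and its co-expression network used genes that differed between the lower dose and control. BR and RR differ in both variety and day. The labels do not say which plants a replicate came from, so p-values measure the spread between these libraries. In whole grain, fewer cells of a type and less RNA per cell cannot be told apart.

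Rice endosperm fills by storing protein and starch. Glutelins and prolamins are made at the endoplasmic reticulum and packed into protein bodies, with help from chaperones such as BiP and protein disulfide isomerases. Starch is built from ADP-glucose, which ADP-glucose pyrophosphorylase makes, by granule-bound and soluble starch synthases, branching enzymes and isoamylase.

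RR Fe replicate 1 at 15 DAF did not resemble the other Fe libraries of its group. Its log2 values correlated at 0.969 and 0.945 with the RR controls 2 and 3 of that day, and at 0.845 and 0.877 with Fe replicates 2 and 3. The Fe comparison at 15 DAF is therefore given with and without it, as is the count of calls between the days. The libraries summed to between 547675 and 679747 FPKM, with 20050 to 23671 genes above 0 in each. Of 9 starchy endosperm markers, 8 are members, and the other cell types were followed by 5 aleurone and embryo markers, 4 of chlorophyll-bearing tissue, 3 of vascular and nucellar tissue and 8 of dividing cells.

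The members held 80.7, 76.5 and 76.0% of all FPKM in BR controls 1, 2 and 3. In the BR Fe libraries they held 74.0, 78.5 and 77.4%. The ranges of control and Fe libraries overlapped in BR. In RR at 15 DAF the share was 56.3 and 63.1% in the controls, and 60.5, 32.2 and 38.9% in Fe replicates 1, 2 and 3. At 20 DAF it was 16.4, 14.6 and 16.4% in the controls and 11.4, 9.08 and 17.7% under Fe. Every library at 20 DAF thus lay below every library at 15 DAF, and every RR library lay below every BR library. The BR controls chose the members, so the lower share in RR than in BR follows in part from the choice. With members ranked over all libraries instead, the share was 74.9% in BR and 30.9% in RR at 20 DAF. FPKM is scaled by transcript length, so a share of FPKM is not a share of reads.

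**Figure D1:**
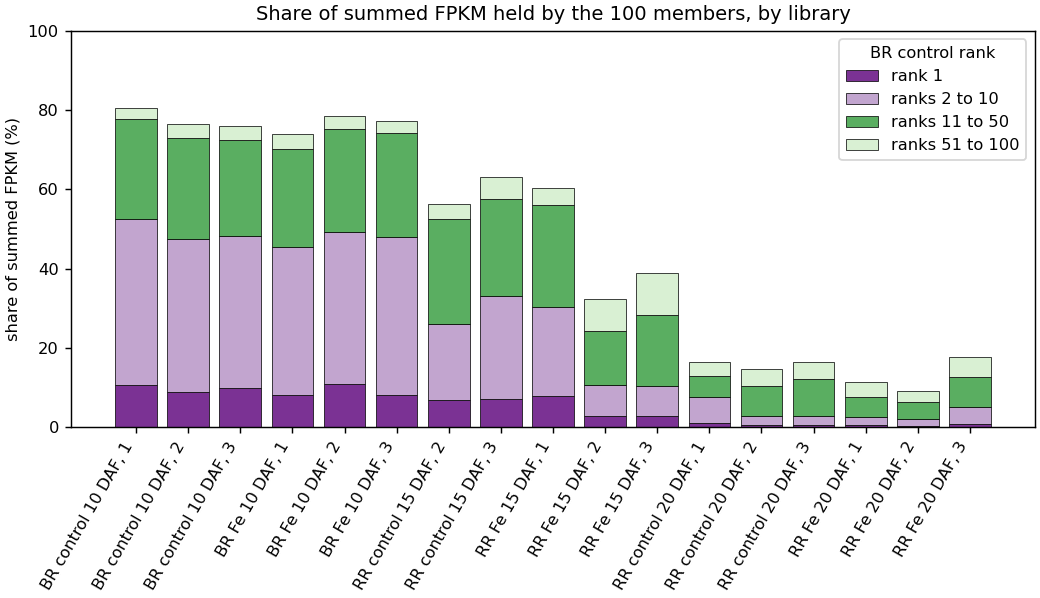
Stacked bars give the percentage of each library's summed FPKM held by members of rank 1, ranks 2 to 10, ranks 11 to 50 and ranks 51 to 100 in the BR controls, for 17 libraries. The whole bar runs from 74.0 to 80.7% in BR, from 32.2 to 63.1% in RR at 15 DAF and from 9.08 to 17.7% in RR at 20 DAF.

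The drop was steepest among the highest ranks. The ranks were also set by the BR controls, so part of the drop from BR follows from the choice. Ranks 1 to 10 held 45.4 to 52.5% of FPKM in BR, 10.3 to 33.1% in RR at 15 DAF and 1.89 to 7.46% at 20 DAF. Ranks 21 to 100 held 10.7 to 12.2% in BR, 13.0 to 22.8% in RR at 15 DAF and 6.56 to 12.9% at 20 DAF. The number of genes that made up 50% of a library's FPKM was 10 to 12 in BR, 19 to 154 in RR at 15 DAF and 157 to 620 at 20 DAF. Of the 100 members, 86 to 96 stood among the top 100 of each BR library, 40 to 63 did so in RR at 15 DAF and 22 to 34 at 20 DAF. By group mean, all 20 highest members were still in the top 100 of the RR controls and the RR Fe group at 15 DAF. At 20 DAF, 13 of these 20 were in the top 100 of the controls and 12 in that of the Fe group.

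**Figure D2:**
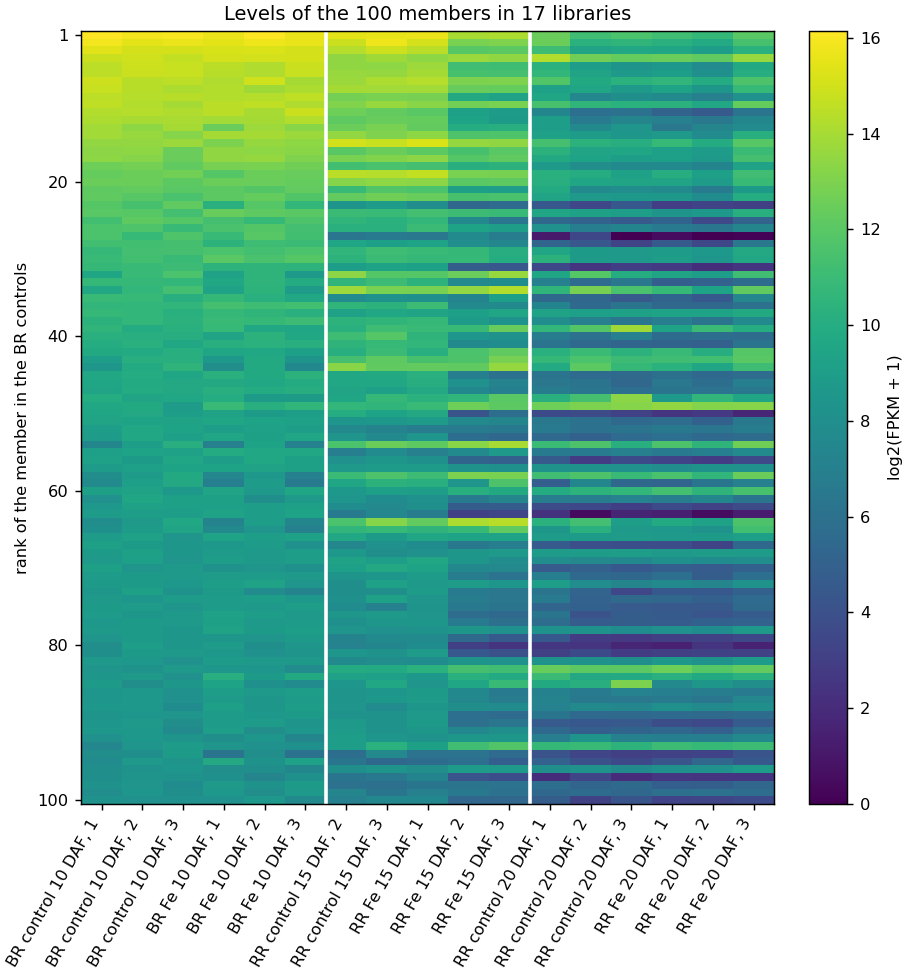
Colours give log2(FPKM + 1) of the 100 members, in rows by BR control rank, in 17 libraries as columns; white lines part BR, RR at 15 DAF and RR at 20 DAF. The median over members runs from 9.20 to 9.63 in the BR libraries, from 8.55 to 9.67 in RR at 15 DAF and from 7.01 to 7.98 at 20 DAF.

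Between 15 and 20 DAF in RR, storage protein, allergen and starch synthesis members fell, and 3 members rose. A gene was called where limma's moderated test on log2(FPKM + 1), over 19774 genes and both treatments, gave a Benjamini-Hochberg adjusted p below 0.01 and a change of at least 1.5-fold. By this rule 69 of 100 members fell, where 5.92% of all genes tested were called lower. 3 members rose, where 29.8% of all genes tested were called higher. Without adjustment, a p below 0.05 was found for 77 lower and 3 higher members, beside 10.8% and 47.8% of all genes. The median log2 change was -2.68 over the members and 0.53 over all genes, and it was -0.87 over the next 100 genes by rank, of which 46 fell and 5 rose. The 6 libraries at 20 DAF lay below the 5 at 15 DAF without overlap for 54 members, against 3.84% of all genes, and above them for 3 members, against 17.1%. All 100 members passed the low-value filter, also when only the RR libraries were counted.

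The share of higher and lower calls depended on scaling. With FPKM as deposited, 5887 genes were called higher and 1170 lower, and centring each library on its median gave 2244 and 2634. Rescaling by the FPKM of the genes that are not members gave 1583 higher and 2068 lower. Among the members, 65 to 82 fell under the 4 other scalings tried, and 60 of the 69 fell under all of them. Of the 3 members that rose, GOS2, LOC4328390 and LOC4352868, 1 was still called higher under all of them.

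The control libraries alone gave 63 members that fell and 2 that rose, where 4.27% and 24.6% of all genes tested were called. The Fe libraries alone, which include the library that stood apart, gave 8 and 0, where 0.162% and 0.44% were called. Without RR control replicate 3 at 15 DAF 47 members fell and 0 rose, beside 2.55% and 7.53% of all genes, and without control replicate 2 of that day 53 fell and 0 rose, beside 2.53% and 11.8%. Leaving out each of the 11 RR libraries in turn, 47 of the 69 falls were called every time and 0 of the 3 rises were. Without RR Fe replicate 1 at 15 DAF 67 members fell and 3 rose, beside 5.48% and 25.3% of all genes. With no filter on low values 56 members fell and 1 rose, beside 3.28% and 17.4%.

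**Figure D3:**
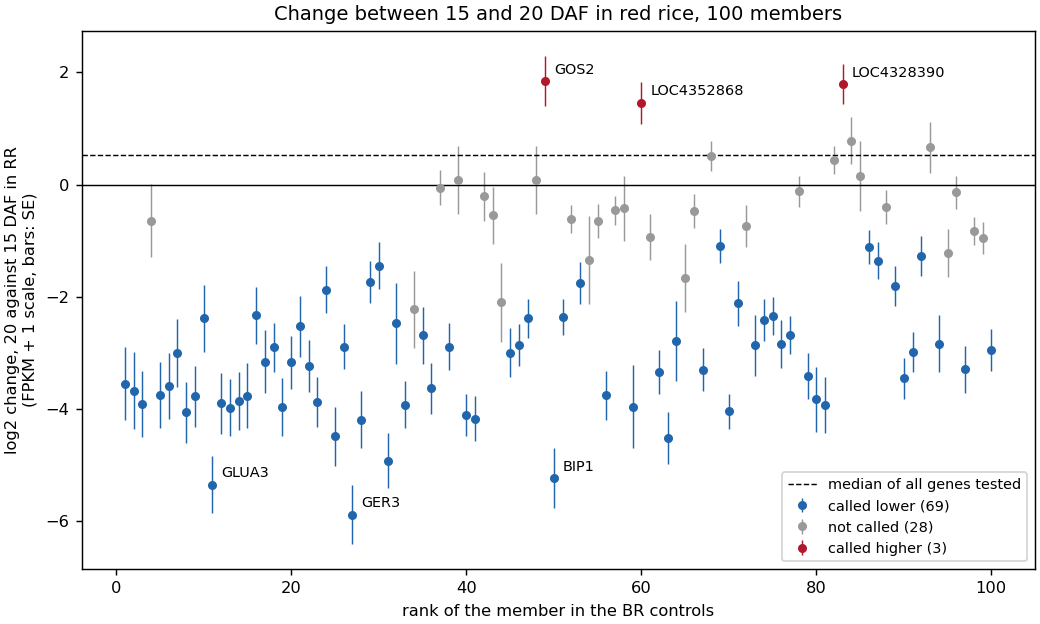
Each point is a member, placed by its rank in the BR controls and its log2 change from 15 to 20 DAF in RR on the FPKM + 1 scale, with its standard error as a bar. Blue marks the 69 members called lower, grey the 28 not called and red the 3 called higher; the dashed line is the median of all genes tested, 0.53.

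Rank 1 was the prolamin gene LOC4342688 (PROLM25). Its FPKM was 71042, 58837 and 63828 in the BR controls and 51436, 72126 and 51208 in the BR Fe libraries. In RR at 15 DAF it was 45361 and 47922 in the controls and 52108, 16992 and 18486 under Fe. At 20 DAF it was 5656, 2356 and 3015 in the controls and 2360, 1691 and 4105 under Fe. Fe replicates 2 and 3 stood below the other libraries at 15 DAF and above every library at 20 DAF. The log2 change between the days was -3.54 ± 0.66 (SE), with an adjusted p of 0.000426 by limma. The call was lost without RR control replicate 3 at 15 DAF (adjusted p = 0.0105, limma), with no filter on low values (0.197) and after quantile normalization (0.0233).

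The 6 glutelin members, which encode the main storage proteins of rice, all fell between 15 and 20 DAF, as did the remaining listed glutelin GLUB2 at rank 114, with log2 changes from -5.35 to -2.52 over the 7. GLUA1 (LOC4327027) was at 58795, 45148 and 51684 FPKM in the BR controls. It was at 29878 and 55314 in the RR controls at 15 DAF and at 35682, 7638 and 8136 in the Fe libraries of that day. At 20 DAF its FPKM was 5834, 1250 and 1514 in the controls and 1210, 931 and 2833 under Fe. The higher RR control at 15 DAF thus lay within the range of the BR controls, and no library at 20 DAF did. Its log2 change was -3.67 ± 0.68, with an adjusted p of 0.000427 by limma, and the call was lost without RR control replicate 3 at 15 DAF, at -3.45, and with no filter.

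GLUA3 (LOC4333164) fell the most of the glutelins. Its FPKM was 19753, 20542 and 19306 in the BR controls and 6007 and 5000 in the RR controls at 15 DAF. It was 4087, 570 and 482 in the Fe libraries of that day, so that these 3 lay below both controls. At 20 DAF it was 166, 58.2 and 63.6 in the controls and 34.5, 23.3 and 74.0 under Fe. Mean FPKM was 3229 ± 2559 (SD, n = 5) at 15 DAF and 69.8 ± 50.5 (SD, n = 6) at 20 DAF, with a log2 change of -5.35 ± 0.51 (adjusted p = 6.23e-06, limma).

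GLUA2 fell by 3.90 on the log2 scale, GluB5 by 3.77, GluB4 by 3.90 and GLUD1 by 2.52. The call of GLUD1 was lost without either RR control library at 15 DAF and in a fit of the RR libraries alone, and that of GLUA2 with no filter. GLUA2, another type A glutelin, averaged 37602 ± 5006 FPKM in the BR controls (SD, n = 3), 25465 in the RR controls at 15 DAF and 1232 in those at 20 DAF. GluB5 and GluB4, which lie next to each other in the RefSeq gene order, averaged 21913 and 17286 in the BR controls, 7217 and 4931 in the RR controls at 15 DAF and 380 and 253 at 20 DAF. GLUA1 and GLUA2 thus kept a larger part of their BR level in the RR controls at 15 DAF than GLUA3, GluB4 and GluB5. The split did not follow type: GLUB2 averaged 240 FPKM in the BR controls and 205 in the RR controls at 15 DAF. GLUD1 averaged 4467 and 2706 in these groups. BR and RR differ in variety and day, and this difference between genes was not tested.

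Rank 5 and rank 6, LOC4328884 and LOC4328883, are immediate neighbours without a name. Their FPKM was 23350 and 23839 in BR control 1, 30172 and 29871 in control 2, and 28722 and 28466 in control 3. In every RR library LOC4328884 was the lower of the pair, and how reads were divided between such neighbours is not stated. Their log2 changes between 15 and 20 DAF were -3.75 ± 0.58 and -3.58 ± 0.59, and both fell.

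**Figure D4:**
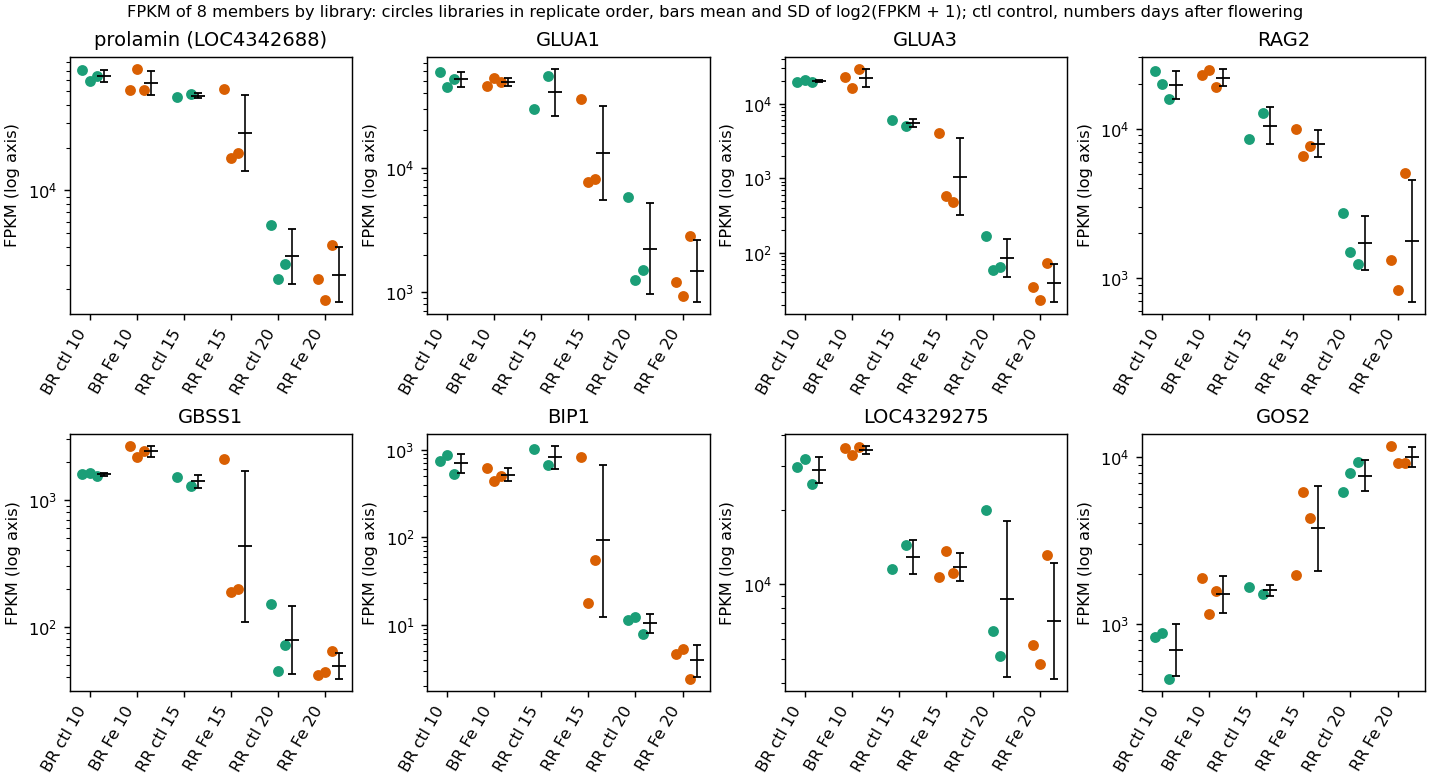
Circles give FPKM on a log axis in each library for 8 members, green for control and orange for Fe, in 6 groups; black bars give mean and SD of log2(FPKM + 1) set back to FPKM. GLUA3 runs from 29035 to 23.3 across the libraries, and GOS2 runs from 464 in a BR control to 11670 in RR Fe at 20 DAF.

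The 5 named allergen and inhibitor members fell. RAG2 (RA14), RA5, RA16 and RAG1 (RA17) belong to the seed allergens of the alpha-amylase and trypsin inhibitor family, and RASI is an alpha-amylase and subtilisin inhibitor. RAG2 (LOC4342723) was at 24321, 19786 and 15771 FPKM in the BR controls and at 8584 and 12786 in the RR controls at 15 DAF. Its Fe libraries of that day were at 9893, 6609 and 7596, so RAG2 was within 2-fold across these 5 libraries. At 20 DAF it was at 2735, 1503 and 1242 in the controls and at 1315, 828 and 5074 under Fe. The fall of RAG2 was -2.38 ± 0.59 on the log2 scale (adjusted p = 0.0032, limma), that of RA5 -3.85, that of RA16 -3.15, that of RAG1 -3.24 and that of RASI -3.95. RAG2 lost its call without either RR control or Fe replicate 3 at 15 DAF, without control replicate 3 or Fe replicate 1 at 20 DAF, with no filter, in a fit of the RR libraries alone and after quantile normalization, with adjusted p from 0.01 to 0.11 by limma. RASI lost its call without RR control replicate 3 at 15 DAF.

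RAG2, RAG1, RA16 and RA5 lie with 4 unnamed members within a run of 14 genes in RefSeq order. Together these 8 members held 7.67 to 11.8% of FPKM in the BR controls and 10.4 to 12.5% in the BR Fe libraries. In RR at 15 DAF they held 7.22 to 8.21% in the controls and 3.77 to 7.92% under Fe. At 20 DAF they held 0.760 to 1.33% in the controls and 0.498 to 2.22% under Fe. All 8 fell between 15 and 20 DAF, with log2 changes from -3.85 to -2.33, among them LOC4342721 (rank 16) at -2.33, LOC4342730 (rank 18) at -2.90 and LOC4342729 (rank 20) at -3.17. The calls of RAG2, LOC4342720 and LOC4342721 were lost without RR control replicate 3 at 15 DAF. In all, 24 members had another member within 5 genes on the same chromosome, in 8 runs.

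A second run held genes that were higher, and a gene that was lower, in the RR controls at 15 DAF than in the BR controls. LOC107276994, LOC9270227 and LOC112935993 are consecutive genes without a name. LOC107276994 was at 11570, 11640 and 13159 FPKM in the BR controls and at 34169 and 28317 in the RR controls at 15 DAF. It was at 37915, 12454 and 11162 in the Fe libraries of that day, at 2633, 1341 and 1066 in the controls at 20 DAF and at 1818, 973 and 3884 under Fe. LOC9270227 likewise averaged 5866 in the BR controls and 21602 in the RR controls at 15 DAF, whereas LOC112935993 averaged 2516 and 631. These neighbours differed in opposite directions between the BR controls and the RR controls, and all 3 fell between 15 and 20 DAF, with log2 changes of -3.76, -3.96 and -4.19.

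The 4 starch synthesis members fell. GBSS1 (Wx, LOC4340018), which makes amylose, was at 1609, 1632 and 1555 FPKM in the BR controls and at 1531 and 1297 in the RR controls at 15 DAF. It was at 2107, 189 and 200 in the RR Fe libraries of that day, at 151, 45.0 and 71.6 in the controls at 20 DAF and at 41.5, 43.7 and 63.9 under Fe. Fe replicates 2 and 3 at 15 DAF were nearer to the 20 DAF controls than to the other libraries of their own day. The log2 change between the days was -3.63 ± 0.45 (adjusted p = 2.62e-05, limma).

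AGPS2, a small subunit of ADP-glucose pyrophosphorylase, fell by 2.89 on the log2 scale, and Sbe1, a branching enzyme, fell by 1.73, a call lost without either RR control library at 15 DAF. ISA1, the isoamylase that trims branches, was at 145 and 167 FPKM in the RR controls at 15 DAF and at 233, 7.15 and 4.43 under Fe. It was at 4.84, 4.33 and 2.38 in the controls at 20 DAF and at 1.80, 4.54 and 2.02 under Fe, a log2 change of -3.82 ± 0.58. Of the 8 listed starch synthesis genes, members or not, 5 fell and 0 rose, where 5.92% and 29.8% of all genes tested did so. ALK, a soluble starch synthase at rank 173, fell by 3.20, while SSI at rank 110 was not called at -0.72 ± 0.28 (adjusted p = 0.0398, limma).

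The 2 folding members differed in size. BIP1 (LOC4328075), the endoplasmic reticulum chaperone, was at 748, 871 and 532 FPKM in the BR controls and at 1016 and 665 in the RR controls at 15 DAF. It was at 838, 17.6 and 54.8 in the Fe libraries of that day, at 11.5, 12.4 and 7.88 in the controls at 20 DAF and at 4.63, 5.34 and 2.39 under Fe. BIP1 fell by 5.22 on the log2 scale with an SE of 0.53 (adjusted p = 9.69e-06, limma). PDIL1-1, a protein disulfide isomerase, was not called, with a log2 change of -0.94 ± 0.41 (adjusted p = 0.0629, limma) and values from 105 to 359 FPKM at 15 DAF (n = 5) and from 71.4 to 169 at 20 DAF (n = 6). Of 16 tested genes on the folding list, 2 fell and 3 rose, where 5.92% and 29.8% of all genes tested did so. The calls on the list thus went both ways.

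GER3 (LOC4344838), a germin-like protein, stood furthest below BR in the RR controls at 15 DAF. Its FPKM was 2992, 1782 and 3276 in the BR controls and 78.7 and 102 in the RR controls at 15 DAF. It was 88.2, 213 and 113 in the Fe libraries of that day. At 20 DAF it was listed at 1.21, 10.3 and 0 in the controls and at 0.396, 0 and 0.122 under Fe. GER3 was the 1 member listed at 0 in any library, and it had the largest fall of the members between 15 and 20 DAF, -5.88 ± 0.53 on the log2(FPKM + 1) scale.

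Among the unnamed members the largest falls were those of LOC4328876, at -4.92 ± 0.49, LOC4328715, at -4.51 ± 0.46, and LOC4328851, at -4.49 ± 0.53. LOC4328876 averaged 1916 FPKM in the BR controls, 357 in RR at 15 DAF and 5.94 at 20 DAF. LOC4341135 and LOC4339221, ranks 7 and 8, averaged 25376 and 22431 FPKM in the BR controls and fell, with log2 changes of -2.997 ± 0.61 and -4.05 ± 0.54, and the call of LOC4341135 was lost without either RR control library at 15 DAF, with no filter and after quantile normalization. Of the 65 unnamed members, 44 fell and 2 rose, and of the 35 named ones 25 fell and 1 rose. By rank, 19 of the members ranked 1 to 20 fell, 17 of those ranked 21 to 40, 9 of those ranked 41 to 60, 14 of those ranked 61 to 80 and 10 of those ranked 81 to 100. The exception among the highest 20 was LOC4329275, rank 4. It was at 11470 and 14383 FPKM in the RR controls at 15 DAF, at 10701, 13654 and 11086 under Fe, at 19824, 6489 and 5155 in the controls at 20 DAF and at 5707, 4761 and 13075 under Fe. LOC4329275 was the highest gene of control replicate 1 at 20 DAF and not of the other libraries of that day, and its log2 change of -0.64 ± 0.65 was not called (adjusted p = 0.416, limma).

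GOS2 (LOC4343445), which encodes a translation initiation factor of the eIF1 type, rose. Its FPKM was 833, 885 and 464 in the BR controls and 1885, 1141 and 1565 in the BR Fe libraries. It was 1670 and 1505 in the RR controls at 15 DAF and 1952, 6138 and 4332 under Fe. At 20 DAF it was 6168, 8018 and 9389 in the controls and 11670, 9162 and 9253 under Fe, above every library at 15 DAF. Mean FPKM was 3119 ± 2040 (SD, n = 5) at 15 DAF and 8943 ± 1808 (SD, n = 6) at 20 DAF, with a log2 change of 1.85 ± 0.45 (adjusted p = 0.00271, limma). The call was lost without either RR control library or Fe replicate 3 at 15 DAF, with no filter, in a fit of the RR libraries alone, and when libraries were centred on their medians (1.32) or rescaled by genes that are not members (1.17).

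LOC4328390 and LOC4352868, both without a name, were the other 2 members that rose, by 1.79 ± 0.35 and 1.46 ± 0.37 on the log2 scale. LOC4328390 was at 347, 318 and 414 FPKM in the BR controls, at 989 and 931 in the RR controls at 15 DAF and at 5453, 4359 and 4314 in those at 20 DAF. Both calls were lost without either RR control library at 15 DAF, and that of LOC4352868 also without Fe replicate 3 of that day, control replicate 3 or Fe replicate 1 at 20 DAF, with no filter, or after centring (0.93) or rescaling by genes that are not members (0.78). LOC4326337, GLYI-11 (a glyoxalase) and GAPC3 (a cytosolic glyceraldehyde-3-phosphate dehydrogenase) had the next highest changes, 0.78 ± 0.42, 0.67 ± 0.45 and 0.51 ± 0.27, and none was called. GLYI-11 changed sign when libraries were rescaled by the FPKM of genes that are not members, and GAPC3 did so then and when libraries were centred on their medians. Genes of central carbon use among the members, GAPC3, FBA3 (an aldolase) and PPDKB (pyruvate orthophosphate dikinase), were not called, nor was SUS4 (a sucrose synthase) at -0.46 ± 0.25.

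The lipid transfer and oil members followed another order. LTP (PAPI, LOC4351318), a lipid transfer protein, was at 239, 404 and 820 FPKM in the BR controls and at 146, 537 and 169 in the BR Fe libraries. It was at 3079 and 9637 in the RR controls at 15 DAF, at 4886, 18187 and 22094 under Fe, at 1285, 2530 and 518 in the controls at 20 DAF and at 927, 599 and 3105 under Fe. LTP thus had its highest levels at 15 DAF, and it fell by 2.79 on the log2 scale with an SE of 0.72. This call was lost when any of 7 RR libraries was left out, among them both controls at 15 DAF. nsLTP2, another lipid transfer protein, averaged 540 FPKM in the BR controls, 4575 in RR at 15 DAF and 2929 at 20 DAF, and OLE18, an oil body oleosin, averaged 481, 2251 and 857. Neither was called between the days, at -0.42 ± 0.58 and -1.66 ± 0.61.

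These 3 genes and RASI were each lowest in control 1 and highest in control 3 among the BR controls. In controls 1, 2 and 3, nsLTP2 was at 247, 479 and 895 FPKM, OLE18 at 278, 488 and 676 and RASI at 198, 557 and 854. In BR Fe libraries 1, 2 and 3, nsLTP2 was at 174, 389 and 135 and OLE18 at 205, 344 and 132, and RASI was at 126 and 474 in libraries 1 and 2 and lowest in library 3. For nsLTP2, OLE18 and RASI, control 3 was the highest and Fe 3 the lowest of the 6 libraries. The summed FPKM of the 5 aleurone and embryo markers, of which OLE18 is a member here, ranged from 521 to 1789 in the BR controls and from 237 to 757 in the BR Fe libraries. It ranged from 4769 to 5017 in the RR controls at 15 DAF, from 4913 to 11133 under Fe, from 6534 to 7346 in the controls at 20 DAF and from 5938 to 8620 under Fe.

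Markers of other cell types were followed beside these changes. Between 15 and 20 DAF all 9 endosperm markers were called lower, where 5.92% of all genes tested were called lower and 29.8% higher. Of the others, 0 of 5 aleurone and embryo and 0 of 4 chlorophyll-bearing markers were called. Among the 3 vascular and nucellar markers, 1 fell. The 9 endosperm markers summed to 200610 to 237391 FPKM in the BR controls and 196315 to 221325 in the BR Fe libraries. They summed to 116092 to 154754 in the RR controls at 15 DAF, 31411 to 131490 under Fe, 4803 to 15449 in the controls at 20 DAF and 3473 to 9024 under Fe. The 3 vascular and nucellar markers summed to 161 to 249 FPKM in the BR controls, 67.4 to 138 in the BR Fe libraries, 10.8 to 13.7 in the RR controls at 15 DAF and 2.20 to 71.1 under Fe, and at 20 DAF to at most 0.245, with 2 of 3 at 0 in all libraries of each group. The chlorophyll-bearing markers reached 251 FPKM in a control at 20 DAF and 46.5 in a BR Fe library, with at least 1 library of each group at or below 4.10. The 8 dividing-cell markers summed to 1.38 to 2.65 FPKM in the BR controls, 2.12 to 2.25 in the BR Fe libraries, 4.22 to 7.41 in the RR controls at 15 DAF, 5.45 to 16.8 under Fe, 13.1 to 20.3 in the controls at 20 DAF and 12.9 to 17.7 under Fe. Of the 2 of them that were tested, 1 rose between the days. The part of cell makeup in the members' changes was not tested.

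In comparison with the BR controls, 75 members were lower in every library at 20 DAF than in every BR control and 8 were higher, beside 12.6% and 59.9% of all genes tested. In the RR controls at 15 DAF, 47 were lower in both libraries and 19 were higher in both, beside 12.3% and 49.8% of all genes. The 8 that stood above BR at 20 DAF were GOS2, nsLTP2, GLYI-11, LOC4336570, LOC4349602, LOC4352868, LOC4328390 and LOC4326337. Variety and day cannot be told apart in these counts, and since the BR controls chose the members for being high there, nothing is read from the counts.

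For Fe against control in RR at 15 DAF, no member was called. 0 of 100 members and 0 of 19774 genes (0%) passed in either direction by limma. Without adjustment, a p below 0.05 was found for 26 lower members and 0 higher ones, where 1.59% and 6.57% of all genes were. The median log2 change was -0.72 over the members and 0.29 over all genes tested. The lowest were BIP1 at -3.11 ± 0.86, LOC4328876 at -3.08 ± 0.80, ISA1 at -2.84 ± 0.93, LOC4328715 and LOC4334171 both at -2.62, and LOC9271122 at -2.42 (adjusted p of 0.595 for each by limma). The highest were GOS2 at 1.23 ± 0.72, LTP at 1.20 ± 1.16, LOC4349602 at 1.08 ± 1.28, GLYI-11 at 1.06 ± 0.73, LOC4328390 at 1.04 ± 0.57 and nsLTP2 at 0.98 ± 0.94. Without Fe replicate 1 these 6 were at 1.70, 1.88, 1.59, 1.81, 1.37 and 1.60 in that order, and none was called. The libraries of the 2 treatments did not overlap for 8 members that were lower under Fe and 3 that were higher, where 3.05% and 13.7% of all genes did so.

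The count of calls turned on Fe replicate 1. Without it, 26 members fell and 0 rose, where 0.941% of all genes were called lower and 2.43% higher, and the members' median was -1.11. The members that then fell include BIP1 at -4.68 ± 0.50, ISA1 at -4.56 ± 0.49, GLUA3 at -3.38 ± 0.64, GluB5 at -3.25 ± 0.67, GluB4 at -3.18 ± 0.67, Maltase at -2.87 ± 0.46, GBSS1 at -2.85 ± 0.48 and TOC75 (the channel of the plastid outer envelope) at -2.52 ± 0.33, with adjusted p from 7.9e-05 to 0.0075 in limma. With Fe replicate 1 as the only Fe library of that day, the members' median was 0.05. Its spread was then assumed to be that of the RR controls of that day. Fe replicate 1 correlated more closely with the controls than with the other Fe libraries, so leaving it out favours calls. All 26 members also fell between 15 and 20 DAF, as did 69 of all 100 members. Both comparisons use the RR control libraries at 15 DAF, and whether the 26 calls reflect Fe or stage was not tested. The labels do not say in what way Fe replicate 1 differs.

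**Figure D5:**
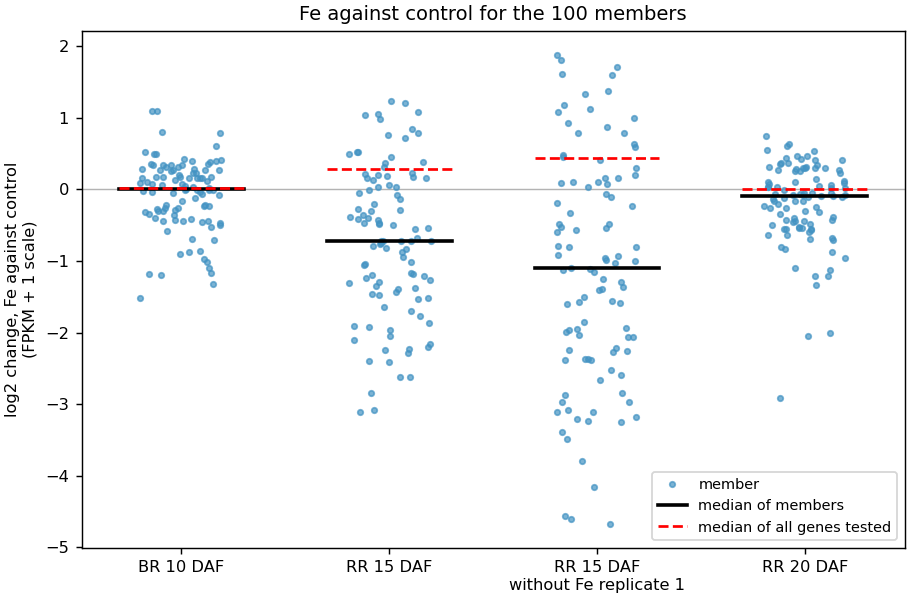
Points give the log2 change under Fe on the FPKM + 1 scale for the 100 members in BR at 10 DAF, in RR at 15 DAF, in RR at 15 DAF without Fe replicate 1 and in RR at 20 DAF. Black lines are the members' medians (0.01, -0.72, -1.11 and -0.09) and red dashed lines those of all genes tested (0.01, 0.29, 0.44 and 0.00).

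At 20 DAF, 0 members were called under Fe by limma, where 0% of all genes were called higher and 0.0152% lower. Without adjustment 5 members were lower and 0 higher, beside 2.47% and 2.56% of all genes. The median log2 change was -0.09 over the members and 0.00 over all genes. It ranged from -0.51 without Fe replicate 3 to 0.12 without control replicate 1, so its direction rested on single libraries. The libraries did not overlap for 4 members that were lower and 3 that were higher, beside 3.75% and 5.15% of all genes. The highest changes were those of LOC4352868 at 0.74 ± 0.44, LOC4349602 at 0.64, LOC4342720 at 0.60, LOC112935993 at 0.55, LOC4328435 at 0.53 and PPDKB at 0.46, and LOC4342720 and LOC112935993 changed sign without Fe replicate 3.

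The lowest changes at 20 DAF were those of new genes of the assembly, NewGene_4642 at -2.92 ± 0.73, NewGene_4640 at -2.05 ± 0.71 and NewGene_4641 at -2.00 ± 0.71. NewGene_4641 was at 1655, 3620 and 14687 FPKM in the controls and at 657, 2018 and 1032 under Fe. NewGene_4642 was at 885, 1130 and 7819 in the controls and at 193, 375 and 248 under Fe, without overlap. Control replicate 3 was the highest library for all 3, and NewGene_4641 was its highest gene. Without that library the changes were -1.93, -1.22 and -1.14. Next came GER3 at -1.33 ± 0.62, NewGene_1930 at -1.21 ± 0.60 and BIP1 at -1.21 ± 0.62, and none was called.

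The difference of the Fe responses at 20 and 15 DAF was tested as an interaction. 0 members were called by limma, where 0% of all genes were called higher and 0.0152% lower, and 9 members were higher and 3 lower when p below 0.05 was taken without adjustment, beside 0.693% and 3.42% of all genes. The median was 0.69 over the members and -0.29 over all genes. Without Fe replicate 1 at 15 DAF, 5 members were called higher and 0 lower, beside 0.137% and 0.111% of all genes. These were LOC4346068 (ISA1) at 4.17 ± 0.63 and the unnamed LOC4328876 at 4.05 ± 0.47, LOC4334171 at 4.07 ± 0.50, LOC4351875 at 3.16 ± 0.53 and LOC4335042 at 3.06 ± 0.45. ISA1 averaged 3.85 FPKM in the controls at 20 DAF and 2.79 under Fe. In these controls LOC4328876, LOC4334171 and LOC4335042 ranked 9447, 8840 and 8044 by group mean, and LOC4351875 ranked 1510. On the log2(FPKM + 1) scale a fold change from values as low as those of ISA1 is understated. Leaving out Fe replicate 1 favours calls here too.

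In BR the Fe libraries are set against the controls that chose the members, so the values are a description. The median log2 difference was 0.01 over the members and 0.01 over all genes, with 51 members above 0 and 49 below. 0 members were called, beside 0.334% of all genes called higher and 0.379% lower, and nothing is read from this count. Fe libraries lay above all controls for 12 members and below them for 6, beside 8.29% and 6.11% of all genes. The largest differences were those of GOS2 at 1.10 ± 0.38, LOC4326337 at 1.09 ± 0.35 and PPDKB at 0.80 ± 0.36. LOC4326337 was at 364, 420 and 290 FPKM in the controls and at 1087, 440 and 901 under Fe. PPDKB was at 219, 406 and 330 in the controls and at 853, 303 and 607 under Fe, with overlap. The smallest were those of GLN1-3 (a cytosolic glutamine synthetase) at -1.52 ± 0.43, RASI at -1.32 ± 0.62 and LOC4334398 at -1.20 ± 0.59. GLN1-3 was at 248, 258 and 452 in the controls and at 72.6, 254 and 64.7 under Fe, and BR Fe replicate 2 lay within the control range for both PPDKB and GLN1-3.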

How the data were processed

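The authors used HISAT2 and StringTie on the rice genome IRGSP-1.0 and deposited 1 FPKM value per library for each of 32657 genes, 3920 of them named as new by their assembly. Versions and the rule for counting are not given in the sources used here. Depth is unknown: the lowest values above 0 reached 1e-06 FPKM, so that no whole reads could be recovered and no counting interval is given. All 17 libraries were analysed as log2(FPKM + 1), on which a fold change understates that of low genes, in R 4.3.3 with limma 3.58.1: 6 group means, a variance factor per group, trended eBayes, and two-sided p-values adjusted by Benjamini-Hochberg over 19774 genes, those that reached 1 FPKM in 2 or more libraries. Contrasts were Fe against control in each group, 20 against 15 DAF in RR with both treatments weighted equally, and the difference of the Fe responses. Calls needed an adjusted p below 0.01 and a change of at least 1.5-fold. The fit was tested on simulated data. The study's DESeq2 needs counts and was not run.

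Members, role lists and markers were chosen with earlier results of these data known. Names come from RefSeq (ASM3414082v1), which held 93 of 100 members and 27491 of 28737 annotated IDs and was used only for names and gene order; lists hold only genes with a short name, and no storage globulin could be matched. Named genes were the 20 highest members, the 6 highest and 6 lowest changes in each RR contrast, the 3 highest and 3 lowest BR differences, the genes beside the rank limit and 2 to 4 per role list. Other members and the listed glutelin, starch, allergen and inhibitor genes outside the 100 were named after their values were seen. Alternatives varied the pseudocount, filter, libraries, weights, scaling, thresholds, replicate block and choice of members. No sequence was at hand, and the motif search that had been planned was not run.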

Additional observations from a re-analysis of the deposited data

How the results depend on the processing

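Leaving aside the fits that drop 1 library, 181 call counts, medians and shares stayed within set limits under other settings and 24 moved. Staying within the limits allowed some change in size. With no filter, 1 member rose and 56 fell between the days, beside 17.4% and 3.28% of all genes. The main fit gave 3 and 69, beside 29.8% and 5.92%, and the difference did not count as moved. Of the log2 changes of single genes, 577 stayed the same, 18 were weaker and 10 changed sign. Libraries rescaled by the FPKM of genes that are not members gave medians of -1.14 for Fe at 15 DAF and -3.34 for 20 against 15 DAF, and centring gave -3.22 for the latter. Members ranked over all libraries, of which 58 are shared, gave 1 call and a median of -0.39 in BR, medians of 0.24 for Fe at 15 DAF, -0.45 between the days and -0.18 for the interaction, and shares of 74.9% in BR and 30.9% in RR at 20 DAF. The 50 highest gave 42 calls (1 rose, 41 fell) and a median of -3.16 between the days, with shares of 73.9% and 10.2%. The 200 highest gave 123 calls (8 rose, 115 fell) and a median of -1.70 between the days, with shares of 79.9% and 22.4%. They gave 2 calls in BR. Of all genes tested, 29.8% were called higher and 5.92% lower between the days, and 0.334% and 0.379% in BR. The BR controls chose these sets alone or with other libraries, so nothing is read from the BR calls or median. The Fe libraries alone gave 8 lower calls, beside 0.162% of all genes, and a median of -2.28 between the days. Without Fe libraries 2 and 3 at 15 DAF, a setting chosen after seeing the data, medians were 0.049 for Fe at 15 DAF, -3.11 between the days and -0.22 for the interaction, and for Fe at 15 DAF BIP1 was at 0.028, ISA1 at 0.58, LOC4334171 at 0.46, LTP at -0.16, GLYI-11 at -0.46 and nsLTP2 at -0.26. Between the days GLYI-11 was at -0.012 and GAPC3 at -0.17 after rescaling by other genes, GAPC3 at -0.024 after centring and LOC4329275 at 0.78 after quantile normalization. The cause was not tested.

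Leaving out 1 library at a time, calls ranged from 0 to 2 in BR (1 higher and 1 lower without Fe replicate 2, beside 1.57% and 1.78% of all genes), 0 to 26 for Fe at 15 DAF (26 without Fe replicate 1, beside 0.941% lower), 0 to 0 at 20 DAF, 47 to 76 between the days and 0 to 5 for the interaction. Medians ranged from -0.02 to 0.03, -1.11 to -0.50, -0.51 to 0.12, -2.85 to -2.39 and 0.31 to 1.08 in the same order. Between the days, 47 fell and 0 rose without RR control replicate 3 at 15 DAF, beside 2.55% and 7.53% of all genes. Without BR Fe replicate 2, 73 fell and 3 rose, beside 6.05% and 29.7%. The 5 interaction calls, all higher, came without RR Fe replicate 1 at 15 DAF, beside 0.137% of all genes. The BR controls chose the members, so nothing is read from the BR counts. LOC4342720 ranged from -0.27 to 1.23 and LOC112935993 from -0.26 to 1.23 for Fe at 20 DAF. Same-numbered libraries correlated between -0.357 and 0.231 in their deviations from the group means, so that pairing was not shown and the numbers were not treated as pairs. With the replicate block 74 members were called between the days (3 rose, 71 fell), beside 31.2% higher and 6.53% lower over all genes. In each Fe comparison and the interaction 0 members were called, where at most 0.253% of all genes were called in either direction. FPKM without counts gives no depth, which limits what can be said of values near 0.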
